A study of Homo sapiens with 12 samples.

Results

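Induction of a hairpin RNA against the zinc finger gene ZXDC was examined in U937 cells differentiating under PMA, by setting 3 arrays of PMA-treated cells given doxycycline against 3 arrays of PMA-treated cells without it. These are 6 of the 12 arrays of the study, taken by their titles, and the titles number them 1 to 3 in each group as biological replicates. U937 is an established human line from a histiocytic lymphoma, and its cells resemble immature monocytes. All cells of the study, the controls included, carried the same TRIPZ-shRNAmir TetOn cassette, made from 1 hairpin clone aimed at ZXDC1/2, and were kept in puromycin at 0.5 µg/mL. The cassette makes its hairpin when doxycycline is present. Daily doxycycline at 0.5 µg/mL over 4 days marked the PMA with doxycycline group and was absent from the PMA group. Both groups received 100 nM PMA, a phorbol ester that activates protein kinase C, once the first 2 days of doxycycline had passed, and were left for 3 days. Vehicle cultures, which received 0.1% DMSO with or without doxycycline, are used here for comparison only. Cells without the hairpin, or with another hairpin, are in none of the 4 groups, so an effect of doxycycline itself and an effect of the hairpin cannot be told apart. Each array was an Affymetrix HG-U133 Plus 2.0 chip labelled by a 3' IVT kit from 100 ng of RNA, and 19775 genes were measured, each by its probe set of highest mean.

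ZXDC encodes a nuclear zinc finger protein that works with CIITA, the master activator of MHC class II genes. In myeloid cells it has been tied to the transcriptional repressor BCL6 and to the BCL6-repressed chemokine gene CCL2, a strong attractant of monocytes. Several groups of genes recur below. HES and HEY proteins are basic helix-loop-helix repressors, most of which are switched on by Notch receptors through the DNA-binding protein RBPJ. Metallothioneins are small cysteine-rich proteins that bind zinc and copper, and their genes are switched on by the zinc sensor MTF1 through metal response elements. Granule proteases such as cathepsin G are made by immature myeloid cells and are shut off as these cells mature into macrophages.

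HES1, a HES family repressor, rose 2.79-fold with doxycycline and was the only gene of 19775 to pass the unpaired test. Its relative HES4, the repressor gene SNAI1, the MYC family gene MYCL and several metallothionein genes were higher in 3 of 3 pairs and passed a test that pairs arrays by replicate number. CCL2 was lower in 3 of 3 pairs, and passed the paired test only. Of all genes, 14.1% were higher and 18.5% lower in 3 of 3 pairs. The macrophage receptor genes TREM2, VSIG4 and C3AR1 fell in the paired test and the myeloid receptor gene CD300A rose, while the 27 measured monocyte and macrophage genes split into 13 above 0 and 14 below. BCL6 and CIITA signals differed by 0.01 and -0.11 (log2), with neither past either test.

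Across all 19775 genes the doxycycline difference was small. Its median was -0.01 (log2), 5% of genes lay under -0.30 and 5% over 0.26, and 10 genes differed by at least 1, with 6 higher and 4 lower. With group means fitted in limma over all 12 arrays, 1 gene (0.00506%) passed at a Benjamini-Hochberg adjusted p under 0.05, HES1. At an adjusted p under 0.1 there were 4 genes (0.0202%), HES1, MYCL, HES4 and C11orf96, all higher. At an unadjusted p under 0.05 there were 501 higher genes (2.53%) and 713 lower genes (3.61%). In 955 genes (4.83%) all 3 arrays with doxycycline lay above all 3 without, and in 1167 genes (5.9%) all 3 lay below. By pairs of the same number, 2784 genes (14.1%) were higher and 3664 genes (18.5%) lower in 3 of 3 pairs. A fit with a block for each pair of arrays of the same number and agent, called the paired fit from here on, passed 53 genes (0.268%), of which 27 rose and 26 fell. Of these 53 genes, 35 had groups that did not overlap, and their differences spanned 0.53 to 1.48 in size. As the labels do not say what a number shares, the 53 calls assume that it marks a pair. They rest on all 3 PMA pairs: 4 of them passed again without pair 1, 10 without pair 2 and 3 without pair 3.

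The arrays numbered 1 stood apart. As a measure of RNA quality, low in intact RNA, the signal of ACTB probes at the 3' end exceeded that at the 5' end by 2.39, 1.12 and 1.01 (log2) in PMA replicates 1 to 3 and 2.72, 1.32 and 1.64 in PMA with doxycycline. It was therefore higher with doxycycline in 3 of 3 pairs, and its part in the differences below was not tested. The same measure for GAPDH was 0.18, 0.15 and 0.18 without and 0.25, 0.19 and 0.17 with doxycycline. Array medians lay between 5.15 and 5.22 over all 12 arrays. A fit without the 4 arrays numbered 1 passed 9 genes (0.0455%), with HES1, HTRA1 and EFNB2 higher and MS4A3, CTSG, PLAC8, CCL4, TREM2 and GINS2 lower. Of the 8 measured monocyte and macrophage markers, 6 (CD14, CSF1R, ITGAM, ITGAX, CD163 and LYZ) lay above the array median under PMA, while MRC1 and FCGR1A lay below it. Their mean signal spanned 7.56 to 8.24 without and 7.50 to 8.30 with doxycycline, and none of the 8 had an unadjusted limma p under 0.05.

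ZXDC, the target of the hairpin, was read by 6 probe sets. On the brightest (225964_at) its signal was 7.96, 7.89 and 7.51 (log2) in PMA replicates 1 to 3 and 7.39, 7.43 and 7.02 with doxycycline. All 3 values with doxycycline lay below all 3 without, although narrowly. The mean difference was -0.50 (SE 0.16), which left 70.6% of the signal, with a limma adjusted p of 0.613 over all genes and 0.107 in the paired fit. An exact permutation test over the 6 arrays gave p = 0.1 (two-sided), the smallest that its 20 relabelings can give. Each of the gene's 6 probe sets had a lower mean with doxycycline, at differences of -0.71 to -0.15, and 4 of them in 3 of 3 pairs. The related genes ZXDA and ZXDB differed by 0.02 (SE 0.16) and 0.17 (SE 0.20), with groups that overlapped in both.

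**Figure D1:**
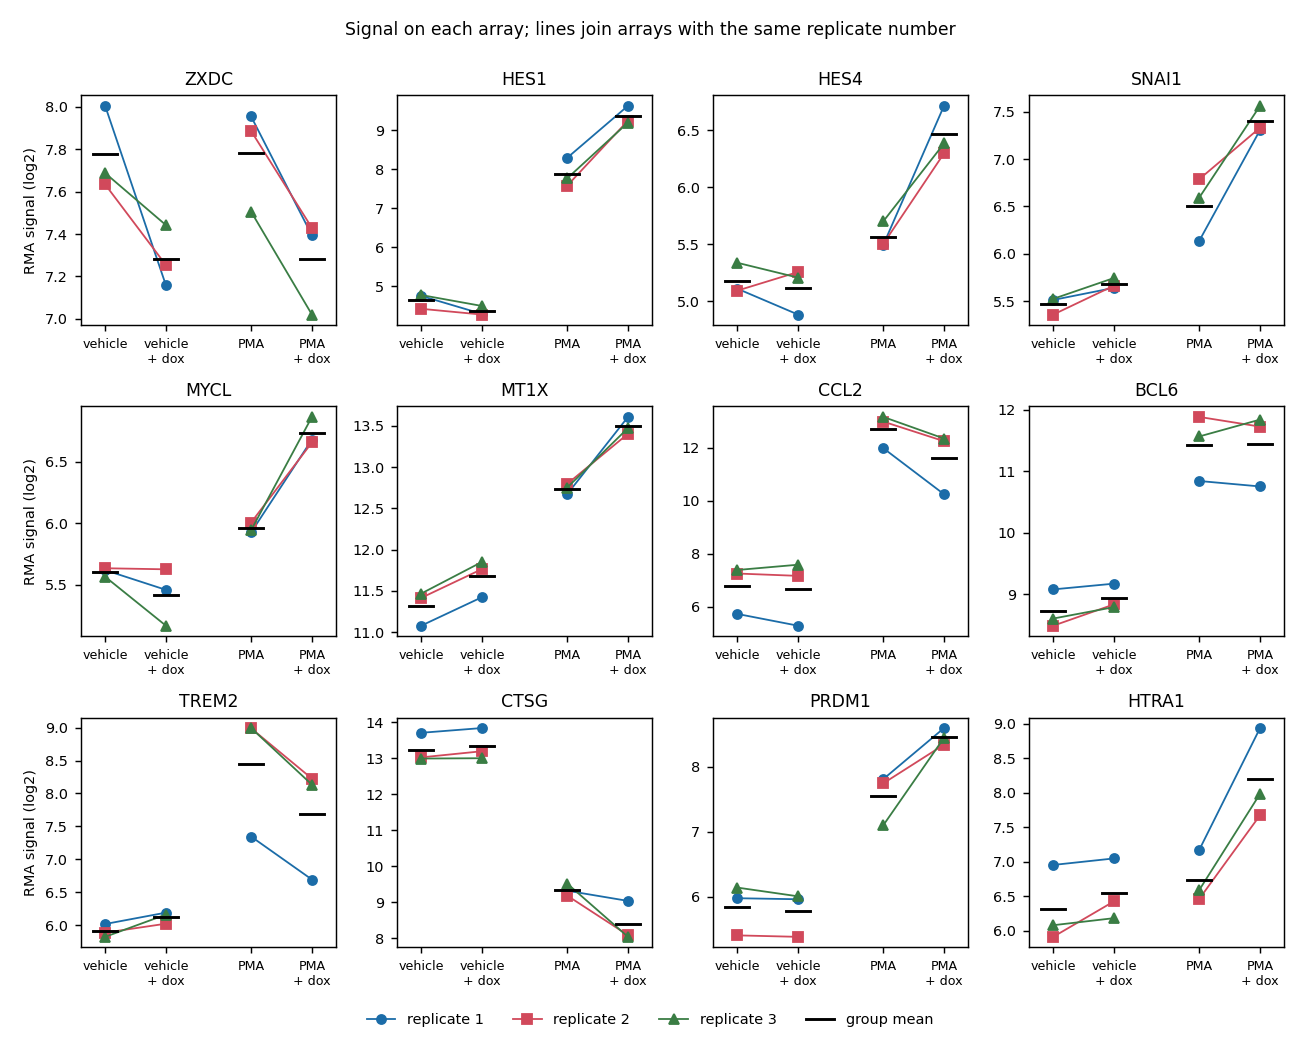
Signal (log2, RMA) of 12 genes on each of the 12 arrays, by agent and doxycycline, with lines joining arrays of the same replicate number and a black bar at each group mean. In PMA-treated cells HES1 went from 7.58 to 8.29 without doxycycline to 9.20 to 9.63 with it. In vehicle-treated cells the lines of this probe set slope the other way, at signals below the array medians. CCL2 replicate 1 lies below the other replicates in every group, and the 3 PMA pairs of BCL6 differ in sign.

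HES1 and HES4 were the members of the HES and HEY family that passed a test. Their promoters are shown because HES1 is a textbook target of RBPJ and HES4 moved with it. The windows run from 250 bases before to 50 bases after the transcription start in RefSeq on GRCh38.p14, 5' to 3' on the gene's strand, with each match to the RBPJ core TGGGAA in capitals. The HES1 window is chr3:194135898-194136197 on the plus strand, and the HES4 window is chr1:1000048-1000347 on the minus strand.
HES1: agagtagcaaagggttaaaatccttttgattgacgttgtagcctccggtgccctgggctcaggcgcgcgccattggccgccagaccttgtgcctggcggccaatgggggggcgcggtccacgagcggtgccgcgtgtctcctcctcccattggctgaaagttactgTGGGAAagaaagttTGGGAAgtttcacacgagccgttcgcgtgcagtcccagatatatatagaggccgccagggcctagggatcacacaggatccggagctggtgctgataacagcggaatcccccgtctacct
HES4: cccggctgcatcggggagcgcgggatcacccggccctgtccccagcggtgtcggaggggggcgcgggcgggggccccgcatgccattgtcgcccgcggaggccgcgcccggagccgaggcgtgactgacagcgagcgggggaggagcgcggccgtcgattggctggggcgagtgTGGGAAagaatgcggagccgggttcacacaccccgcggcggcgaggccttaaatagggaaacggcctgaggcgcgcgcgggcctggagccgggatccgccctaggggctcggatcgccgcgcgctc
The letters TGGGAA were searched on both strands, and no 2 matches overlapped. HES1 holds 2, at -84 and -70 from the start, and HES4 holds 1 at -76. Of 35116 RefSeq promoter windows of this length, 24.0% hold at least 1 match and 3.8% at least 2. The N box (CACNAG) and the class C E box (CACGNG) were searched as well. HES1 holds 4 matches to each, some of them to both, and HES4 holds 0. At least 4 are present in 0.293% of windows for the N box and 0.524% for the class C E box.

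HES1 signal (probe set 203394_s_at) was 8.29, 7.58 and 7.77 in PMA replicates 1 to 3 and 9.63, 9.25 and 9.20 with doxycycline. Every array with doxycycline lay above every array without, and the smallest pair difference was 1.34. The mean rise was 1.48 (SE 0.18), with a limma adjusted p of 0.0214 and 0.000645 in the paired fit. A further probe set, 203395_s_at, went from 6.71 ± 0.52 (SD, n = 3) to 8.03 ± 0.32, a difference of 1.33, also without overlap. The third, 203393_at, was dim at 3.17 ± 0.04 without and 3.27 ± 0.05 with doxycycline. Averaging all 3 probe sets gave a difference of 0.97 with an adjusted p of 0.114, and leaving out probe sets of shared sequence left the dim one, with 0.11 and 0.911. Leaving out PMA replicate 2 or 3, or doxycycline replicate 1, 2 or 3, also ended the unpaired call, with differences of 1.33 to 1.56 and adjusted p-values of 0.0550 to 0.261. Without PMA replicate 1 the difference was 1.69 with an adjusted p of 0.00142. On the 6 PMA arrays alone the adjusted p was 0.690 without and 0.00586 with the pairs as a block. The paired fit kept the call in each of 4 smaller sets of arrays: without pair 1, 2 or 3, and on replicates 2 and 3 alone, with adjusted p-values from 0.00374 to 0.0107.

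HES4 signal was 5.49, 5.50 and 5.70 without and 6.71, 6.30 and 6.38 with doxycycline. The groups did not overlap, and the difference of 0.90 (SE 0.14) passed in the paired fit (adjusted p = 0.0249) but not in the unpaired fit (0.0911). HES4 has 1 probe set, marked as sharing sequence, so the rise could not be checked on a probe set of its own. No other HES or HEY gene passed. HES5, a Notch target of the nervous system, differed by 0.24 (SE 0.16), HES2 by -0.13, HES6 by -0.05, HES7 by 0.00, HEY1 by 0.11, HEY2 by -0.22 and HEYL by 0.09, with unadjusted p-values over 0.05 in every case. HEY2 was dim, at 3.30 without doxycycline. Over the 26 measured genes of the Notch pathway list, which holds receptors, ligands, cofactors and these repressors, the median was -0.02, beside -0.01 for all genes. HES1 and HES4 were its only members with an unadjusted p under 0.05, beside 2.53% of all genes that were higher at that p. Notch receptors differed by 0.19 (NOTCH1), 0.08 (NOTCH2), 0.14 (NOTCH3) and 0.00 (NOTCH4), and RBPJ itself by -0.09 (SE 0.12) on its brightest probe set. The other 2 RBPJ probe sets differed by 0.08 and, on a less bright one, by 0.51 (SE 0.15), the latter without overlap and with an adjusted p of 0.657 over all probe sets. Among the ligands DLL1 differed by 0.20, JAG1 by -0.06 and DLL4 by -0.18. A dimmer DLL1 probe set went the other way, by -0.31 (SE 0.12), with overlap and a limma adjusted p of 0.788 over all probe sets. Of the Notch feedback gene NRARP the difference was -0.13, and of the fringe enzyme LFNG -0.40 (SE 0.24). POGLUT1, which adds glucose to Notch receptors and was outside the list, was 8.69, 8.58 and 8.67 without and 8.02, 8.21 and 8.27 with doxycycline. Its difference of -0.48 (SE 0.11) had no overlap and an adjusted p of 0.432, or 0.0735 in the paired fit.

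Other transcriptional regulators were among the clearest differences. MYCL, a MYC family factor, was 5.93, 6.01 and 5.94 without and 6.68, 6.66 and 6.87 with doxycycline. Its groups were tight and did not overlap, and the difference of 0.78 (SE 0.12) passed in the paired fit (adjusted p = 0.0249, unpaired 0.0911). A second, dimmer MYCL probe set differed by 0.22 with overlap. SNAI1, a zinc finger repressor best known for silencing E-cadherin, was 6.14, 6.79 and 6.59 without and 7.31, 7.33 and 7.56 with doxycycline. Its difference was 0.89 (SE 0.15), without overlap, and passed in the paired fit (0.0249, unpaired 0.125). PRDM1 encodes Blimp-1, a transcriptional repressor that drives terminal differentiation and that BCL6 holds down. It was 7.81, 7.74 and 7.10 without and 8.59, 8.34 and 8.44 with doxycycline, a difference of 0.91 (SE 0.22) without overlap that passed in the paired fit (0.031, unpaired 0.436). Its other 2 probe sets differed by 0.35 and 0.26.

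BCL6 signal was 10.84, 11.88 and 11.57 without and 10.76, 11.73 and 11.84 with doxycycline. These values overlap fully, and the difference of 0.01 (SE 0.29) changed sign when PMA replicate 1 or doxycycline replicate 2 or 3 was left out, to between -0.29 and -0.13. Of 17 measured BCL6-repressed genes, PRDM1 rose and CCL2 fell in the paired fit, in which 0.268% of all genes passed. The median over the list was -0.11. CIITA signal was 5.36 ± 0.05 (SD, n = 3) without and 5.26 ± 0.16 with doxycycline. Across 16 genes of MHC class II and its regulators the median difference was -0.06, and RFX5 and RFXAP, parts of the factor that recruits CIITA, differed by -0.24 (SE 0.10) and -0.38 (SE 0.17), without overlap and with adjusted p-values of 0.794 and 0.802. These were the list's 2 members with an unadjusted p under 0.05, beside 3.61% of all genes that were lower at that p. On a dimmer probe set of each gene the groups overlapped, with differences of -0.25 (RFX5) and 0.04 (RFXAP).

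**Figure D2:**
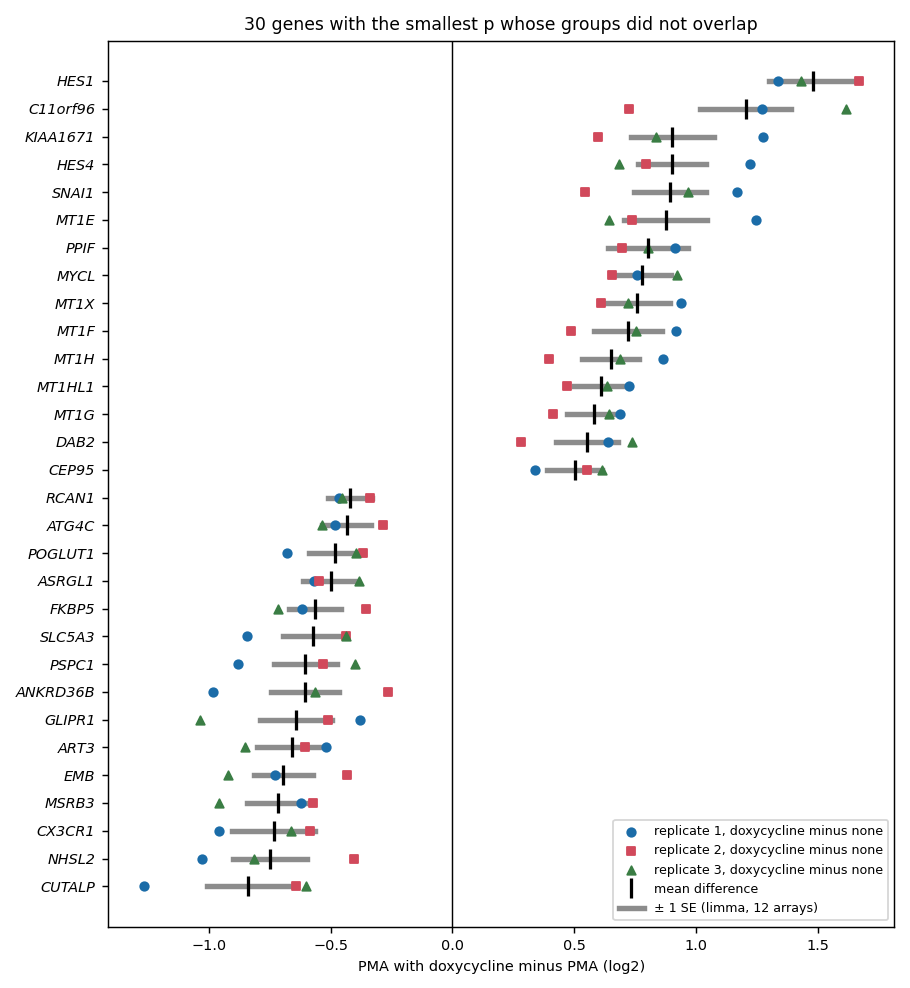
Difference between PMA with doxycycline and PMA (log2) for 30 genes, the 15 higher and 15 lower genes of smallest p whose groups did not overlap, with 1 point per replicate pair, a black tick at the mean and a grey bar of 1 SE on each side from limma. All points lie on 1 side of 0, as the choice of genes requires. HES1 is at 1.48 and CUTALP at -0.84, and 6 of the 15 higher genes are metallothionein genes.

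Metallothionein genes were higher as a group. Of 12 measured genes of the metallothionein and zinc list, 8 had an unadjusted p under 0.05, all upward, and 7 had groups that did not overlap, against 2.53% and 4.83% of all genes. The median over the list was 0.48, and by pair it was 0.72, 0.33 and 0.47. In the paired fit MT1X, MT1E and MT1H rose, as did MT1HL1, which the list does not hold. Promoters of MT1X, MT1H and MT2A are shown because metal response elements are the feature these genes share. The windows are of the same length and build, at chr16:56682220-56682519 (MT1X), chr16:56669564-56669863 (MT1H) and chr16:56608334-56608633 (MT2A), all on the plus strand. Capitals mark matches to TGCACNC or TGCGCNC on either strand.
MT1X: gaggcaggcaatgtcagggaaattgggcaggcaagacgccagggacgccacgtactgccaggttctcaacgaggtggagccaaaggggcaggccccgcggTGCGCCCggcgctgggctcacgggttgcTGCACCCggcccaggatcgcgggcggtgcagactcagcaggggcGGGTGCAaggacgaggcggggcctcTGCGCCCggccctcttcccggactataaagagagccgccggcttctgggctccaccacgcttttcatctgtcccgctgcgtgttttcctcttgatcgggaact
MT1H: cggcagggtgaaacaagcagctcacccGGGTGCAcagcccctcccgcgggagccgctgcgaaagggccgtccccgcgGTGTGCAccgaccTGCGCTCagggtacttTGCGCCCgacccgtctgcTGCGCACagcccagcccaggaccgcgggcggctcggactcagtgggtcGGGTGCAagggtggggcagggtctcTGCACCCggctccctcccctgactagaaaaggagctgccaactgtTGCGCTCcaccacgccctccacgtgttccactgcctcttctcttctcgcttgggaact
MT2A: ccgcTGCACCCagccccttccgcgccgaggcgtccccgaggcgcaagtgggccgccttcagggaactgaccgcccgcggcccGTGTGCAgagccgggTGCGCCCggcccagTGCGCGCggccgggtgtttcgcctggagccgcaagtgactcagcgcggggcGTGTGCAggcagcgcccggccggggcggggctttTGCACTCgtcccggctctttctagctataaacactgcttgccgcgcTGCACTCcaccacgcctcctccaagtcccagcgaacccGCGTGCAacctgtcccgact
MT1X holds 4 matches and MT1H and MT2A hold 8 each, none overlapping another. At least 1 match is present in 29.6% of the 35116 windows, at least 4 in 0.601% and at least 5 in 0.162%.

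MT1X signal was 12.67, 12.80 and 12.75 without and 13.61, 13.41 and 13.47 with doxycycline. The groups did not overlap, and the difference of 0.76 (SE 0.14) had a paired adjusted p of 0.0211 and an unpaired one of 0.164. MT1E was 11.32, 11.28 and 11.32 without and 12.57, 12.02 and 11.96 with doxycycline, with replicate 1 highest and no overlap. Its difference was 0.88 (SE 0.17), with a paired adjusted p of 0.031 and an unpaired one of 0.209. MT1H differed by 0.65 (SE 0.12, paired 0.0477), MT1HL1 by 0.61 (SE 0.11, paired 0.0477), MT1F by 0.72 (SE 0.14, paired 0.0552), MT1G by 0.58 (SE 0.11, paired 0.0518) and MT2A by 0.58 (SE 0.13, paired 0.0552). Every one of these 7 genes had groups that did not overlap. All 7 are read by probe sets marked as sharing sequence, and the family's genes are nearly identical, so the 7 rises are not 7 independent measurements and cannot be assigned to single genes. Without such probe sets MT1X, MT1E, MT1F, MT1H and MT2A dropped out of the list, and MT1G was read by a dim probe set that differed by 0.11. The median of 0.11 in that setting is thus over a different set of genes. Members of the list other than these 7 genes were lower in level or differed less. MT1M, dim at 3.19 without doxycycline, differed by 0.36 (SE 0.15) with overlap, MT3, the brain form, by 0.04, and MT4 by 0.39. SLC30A1, the zinc exporter and a further MTF1 target, was 11.39, 11.39 and 11.26 without and 11.71, 11.56 and 11.47 with doxycycline. Its difference of 0.23 (SE 0.11) had no overlap and an adjusted p of 0.807. MTF1 differed by -0.01 (SE 0.11) and the zinc importer SLC39A10 by -0.18 (SE 0.14). In vehicle-treated cells the list's median was 0.14, with MT2A at 0.41 and MT1X at 0.36. The interaction of doxycycline and agent, 0.40 (SE 0.19) for MT1X and 0.67 (SE 0.24) for MT1E, had an adjusted p of 1 in both.

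**Figure D3:**
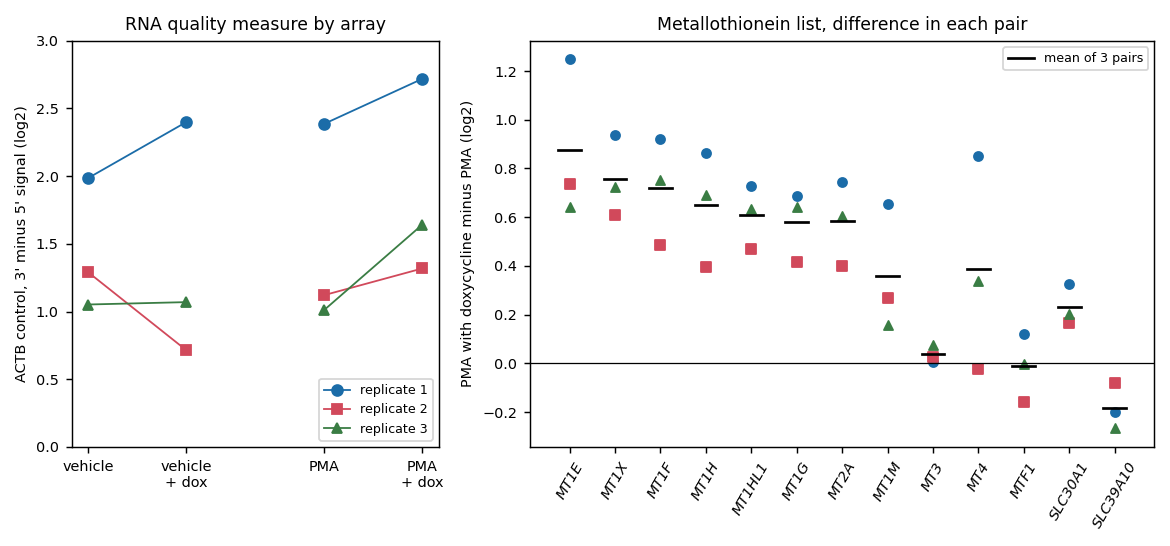
Left, ACTB signal at the 3' end less that at the 5' end (log2) on each array, with lines joining arrays of the same number; replicate 1 lies highest in every group, and all 3 PMA lines go up with doxycycline. Right, the difference between PMA with doxycycline and PMA (log2) in each replicate pair for the genes of the metallothionein list and MT1HL1, with a black bar at the mean; pair 1 is the highest for all 7 metallothionein genes whose groups did not overlap.

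Of the other genes that rose in the paired fit, HTRA1, EFNB2, CD300A and GPRC5B encode secreted or surface proteins. HTRA1, a secreted serine protease, was 7.17, 6.46 and 6.59 without and 8.93, 7.67 and 7.98 with doxycycline. Replicate 1 was the highest in both groups, the groups did not overlap, and the difference of 1.46 (SE 0.34) had a paired adjusted p of 0.00271 and an unpaired one of 0.432. With replicate numbers as a block over all 12 arrays it passed too (0.00197). EFNB2, the membrane ligand ephrin-B2, was 6.01, 4.30 and 4.48 without and 6.86, 5.50 and 5.50 with doxycycline, so that its groups overlapped through replicate 1 while every pair differed by 0.85 or more. Its difference was 1.03 (SE 0.41, paired 0.00988, unpaired 0.768). CD300A, an inhibitory receptor of myeloid cells, was 11.65, 10.84 and 11.04 without and 12.32, 11.59 and 11.78 with doxycycline, a difference of 0.72 (SE 0.23, paired 0.0211). GPRC5B, an orphan receptor, differed by 1.42 (SE 0.66, paired 0.0211), but its other 3 probe sets differed by 0.11, 0.21 and -0.31, so that its rise rests on 1 probe set. C11orf96 was 5.46, 5.31 and 4.92 without and 6.73, 6.04 and 6.54 with doxycycline, a difference of 1.20 (SE 0.19, paired 0.0211, unpaired 0.0911) without overlap, and its dimmer probe set differed by 0.02.

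Further rises in the paired fit were in PPIF, the mitochondrial cyclophilin that governs the permeability pore, with a difference of 0.80 (SE 0.16, paired 0.0314), in KIAA1671 (0.90, paired 0.0436), in RNF168, a ubiquitin ligase of the DNA damage response (0.75, paired 0.0303), and in SELENOM, a selenoprotein of the endoplasmic reticulum (0.76, paired 0.0465). The other, dimmer probe sets of KIAA1671 differed by 0.02 and -0.03. DAB2, an endocytic adaptor, differed by 0.55 and CEP95, a centrosome protein, by 0.50, without overlap, and neither passed in the paired fit (0.0657 and 0.0584). DUSP5, a phosphatase of the ERK kinases that phorbol esters activate, was 11.20, 11.39 and 10.85 without and 11.92, 12.02 and 11.86 with doxycycline. All 3 of its arrays with doxycycline were higher than any without, at a difference of 0.79 (SE 0.26, adjusted p = 0.623, paired 0.0712).

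Among the genes that were lower, MSRB3 and EMB had the smallest p-values in the unpaired fit. MSRB3, an enzyme that repairs oxidised methionine, was 7.14, 6.88 and 7.10 without and 6.52, 6.31 and 6.14 with doxycycline. Its difference was -0.72 (SE 0.12, paired 0.031, unpaired 0.162), although its other 4 probe sets differed by between -0.37 and 0.29. EMB, the cell adhesion protein embigin, was 8.37, 8.38 and 8.48 without and 7.63, 7.95 and 7.56 with doxycycline, a difference of -0.70 (SE 0.12, paired 0.0477). FKBP5, a co-chaperone of the glucocorticoid receptor, was 10.37, 10.35 and 10.56 without and 9.76, 10.00 and 9.84 with doxycycline. Its 3 probe sets differed alike, by -0.56, -0.57 and -0.47, and the paired adjusted p was 0.0518. The groups of all 3 genes were separate on these arrays.

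NHSL2 (-0.75, paired 0.0477) and the pseudogene CUTALP (-0.84, paired 0.0498) also passed in the paired fit. Their dimmer probe sets disagreed: that of NHSL2 differed by 0.30, and those of CUTALP by -0.56, 0.29 and 0.16. Without passing, and without overlap, RCAN1, an inhibitor of calcineurin, differed by -0.42 (SE 0.09), SLC5A3, the myo-inositol transporter, by -0.57 (SE 0.12), ASRGL1, an asparaginase, by -0.50, ATG4C, a protease of autophagy, by -0.43, GLIPR1 by -0.64, ART3 by -0.66 and ANKRD36B by -0.60. PSPC1, a paraspeckle protein, differed by -0.60 (paired 0.0518), and its partner SFPQ, an RNA-binding splicing factor, by -0.58 (SE 0.22, paired 0.0463). SFPQ was 11.10, 10.30 and 10.52 without and 10.58, 9.80 and 9.82 with doxycycline. Its probe sets disagreed: another bright one differed by -0.56, while 2 more differed by 0.16 and 0.11. A bright second probe set of PSPC1 differed by 0.07. Over the 35 measured splicing factors the median was -0.08, with 1 member higher and 2 lower at an unadjusted p under 0.05, beside 2.53% and 3.61% of all genes.

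Several macrophage genes that fell in the paired fit had a replicate 1 far from the others. TREM2, a lipid-sensing receptor, was 7.34, 8.99 and 8.99 without and 6.69, 8.23 and 8.13 with doxycycline. Each pair fell by 0.65 to 0.86 while the groups overlapped, and the difference of -0.76 (SE 0.41) had a paired adjusted p of 0.0211 and an unpaired one of 0.838. VSIG4, a complement receptor of tissue macrophages, was 6.16, 8.89 and 9.22 without and 5.22, 8.26 and 8.27 with doxycycline (difference -0.84, paired 0.0303). C3AR1, the receptor for the complement fragment C3a, differed by -0.54 (paired 0.0477), and the formyl peptide receptor FPR2 by -0.60 (paired 0.0477). Other falls of the paired fit were in RAB7B, a GTPase of late endosomes (-1.02, paired 0.034), and TDO2, a tryptophan-degrading enzyme (-0.73, paired 0.0477). CX3CR1, the fractalkine receptor, was 5.89, 5.32 and 5.63 without and 4.94, 4.73 and 4.97 with doxycycline. Its difference of -0.73 (SE 0.17) had no overlap and did not pass (paired 0.0594). The scavenger receptor gene CD36 differed by -0.83 (SE 0.51, paired 0.108). Over the 27 measured monocyte and macrophage genes the median was -0.11, with 13 above 0 and 14 below. TREM2 and VSIG4 were the only members of this list to pass in the paired fit, beside 0.268% of all genes. In bulk RNA of this kind, fewer cells of a type and less RNA per cell cannot be told apart.

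Of the kinase signalling lists, the protein kinase C and protein kinase A lists each held 1 gene that fell in the paired fit. Over all genes 0.268% passed in that fit. RASGRP3, a Ras activator that diacylglycerol and phorbol esters bind, was 6.35, 7.19 and 6.85 without and 5.54, 6.20 and 6.22 with doxycycline. Its difference was -0.81 (SE 0.20, paired 0.0211, unpaired 0.436), without overlap, while a dim second probe set differed by 0.15. PRKACB, a catalytic subunit of protein kinase A, was 5.39, 6.62 and 6.57 without and 4.53, 5.89 and 5.47 with doxycycline (difference -0.90, SE 0.33, paired 0.0218, unpaired 0.707). The 31 measured protein kinase C and diacylglycerol genes had a median of -0.05 and the 29 protein kinase A genes -0.04.

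CCL2 signal was 11.98, 12.98 and 13.16 without and 10.24, 12.24 and 12.34 with doxycycline. Every pair was lower, by 1.74, 0.74 and 0.82, while the groups overlapped. The difference of -1.10 (SE 0.64) left 46.7% of the signal, with an adjusted p of 0.855 unpaired and 0.0477 paired. Its size leans on replicate 1: without doxycycline replicate 1 it was -0.42 and without pair 1 it was -0.78. The paired call needed all 3 pairs, with adjusted p-values of 0.180, 0.0540 and 0.192 without pairs 1, 2 and 3 and 0.169 on replicates 2 and 3 alone. CCL2 is read by 1 probe set. Of the 23 measured chemokine genes, CCL2 was the only one to pass in the paired fit, beside 0.268% of all genes. The median over the chemokine list was -0.12. CCL7, its neighbour in the monocyte chemoattractant family, was 7.09, 9.58 and 9.88 without and 6.64, 8.57 and 8.98 with doxycycline (difference -0.79, paired 0.0552). CCL4, an inflammatory chemokine, was 5.57, 8.88 and 9.17 without and 5.23, 7.81 and 8.01 with doxycycline (difference -0.86, paired 0.0518). CCL8 was 3.29, 7.40 and 8.10 without and 3.53, 6.07 and 6.45 with doxycycline, so that replicate 1 was near the bottom of the signal range in both groups. On replicates 2 and 3 alone CCL8 differed by -1.49 and CCL4 by -1.11, each with a paired adjusted p of 0.0219. CCL5 differed by 0.05, CXCL8 by -0.12 and CCL1 by -0.00, whereas CXCL2 differed by -0.40 on a probe set of shared sequence and by 0.02 on another.

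Granule genes had a list median of -0.14, -0.33 and -0.19 in pairs 1 to 3. CTSG, cathepsin G, was 9.32, 9.18 and 9.52 without and 9.04, 8.09 and 8.04 with doxycycline. The groups did not overlap, and the difference of -0.95 (SE 0.28) had an adjusted p of 0.503 unpaired and 0.0552 paired. Without the arrays numbered 1 it was -1.29 with an unpaired adjusted p of 0.00678. MS4A3, a membrane protein of granulocyte-monocyte progenitors, was 5.09, 6.24 and 6.64 without and 5.48, 4.73 and 4.59 with doxycycline. Its pairs went in opposite directions, 0.38 for replicate 1 against -1.50 and -2.05, and the difference was -1.06 (SE 0.31, adjusted p = 0.509) over all arrays and -1.78 without those numbered 1 (0.0013). ELANE, neutrophil elastase, differed by -0.45 (SE 0.21), PRTN3, proteinase 3, by -0.47 (SE 0.21) and CEBPE, a factor of granulocyte maturation, by -0.29 (SE 0.13), with adjusted p-values of 0.807 in each. RNASE2, a granule ribonuclease, differed by -0.79 (SE 0.37) and passed in the paired fit (0.0377). Over the 13 measured granule genes the median was -0.22, and 5 had an unadjusted p under 0.05, all downward, beside 3.61% of all genes. LTF, lactoferrin, went the other way at 0.32 (SE 0.16). The 5 markers taken for granulocyte precursors (MPO, ELANE, CTSG, PRTN3 and AZU1), 3 of them described above, had a mean signal of 6.31 to 6.61 on the PMA arrays and 5.96 to 6.14 with doxycycline, and 3 lay above the array median under PMA. What a change in the share of such cells contributed was not tested.

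**Figure D4:**
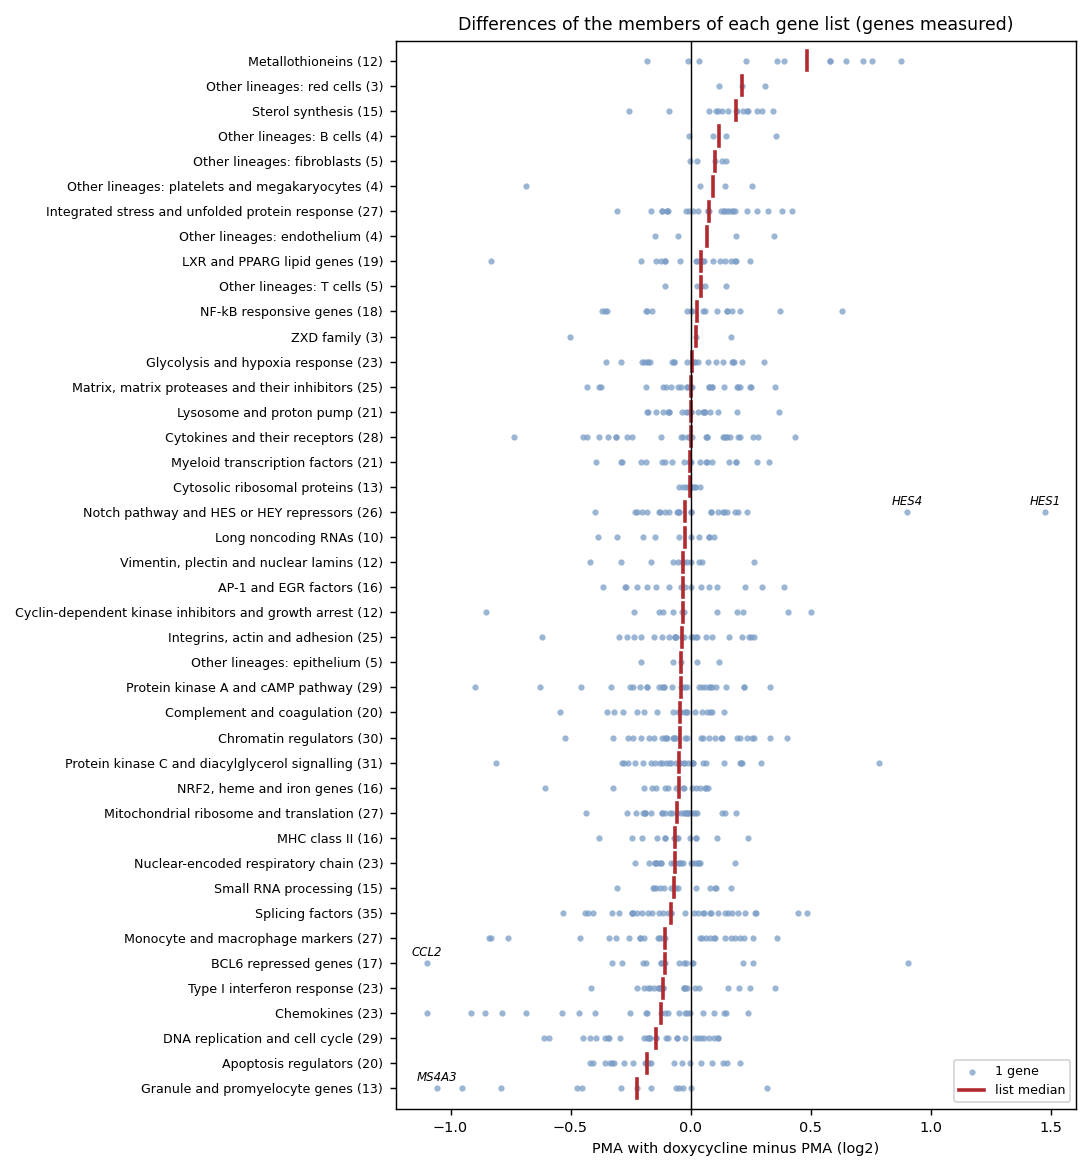
Difference between PMA with doxycycline and PMA (log2) for the measured members of each of 42 gene lists, 1 point per gene, with a red bar at the list median and the number of genes measured in parentheses. Metallothioneins have the highest median, 0.48, and granule genes the lowest, -0.22, while HES1 and HES4 stand apart from their own list.

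The lists described next held no member past the paired fit. Sterol synthesis genes had a median of 0.19, with 13 of 15 measured members above 0, by pair 0.18, 0.24 and 0.17, and 0 members at an unadjusted p under 0.05. Apoptosis regulators had -0.18, with 15 of 20 below 0 and the death receptor FAS at -0.42 (SE 0.17, adjusted p = 0.786), on a probe set of shared sequence. DNA replication and cell cycle genes had -0.14, but by pair -0.00, -0.11 and -0.34. Among these TYMS, thymidylate synthase, differed by -0.42 (SE 0.15) without overlap (adjusted p = 0.691). In the growth arrest list GADD45A, a stress-induced growth arrest gene, was 8.45, 8.47 and 8.62 without and 8.80, 8.99 and 9.25 with doxycycline (difference 0.50, SE 0.13, adjusted p = 0.448, paired 0.0562). CDKN2B, an inhibitor of cyclin-dependent kinases, went the other way, at 8.75, 8.65 and 8.60 against 7.19, 8.15 and 8.09, with replicate 1 lowest (difference -0.85, SE 0.29, adjusted p = 0.662).

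Integrated stress and unfolded protein response genes had a median of 0.08, and DNAJB9, a chaperone cofactor of the endoplasmic reticulum, differed by 0.42 (SE 0.11, adjusted p = 0.436) without overlap. Type I interferon response genes had -0.12, by pair 0.15, -0.01 and -0.27, with 0 of 23 members at an unadjusted p under 0.05. NF-kB responsive genes had 0.03, with the pentraxin PTX3 at 0.63 (SE 0.24, paired 0.0552) and the inhibitor NFKBIA at -0.37 (SE 0.14). Mitochondrial ribosome genes had -0.06, nuclear-encoded respiratory chain genes -0.07, lysosome genes 0.00 and cytosolic ribosomal proteins -0.00, with members of the last between -0.05 and 0.04. SLC40A1, the iron exporter ferroportin, differed by -0.60 (SE 0.18) without overlap (adjusted p = 0.512, paired 0.0552). A dimmer SLC40A1 probe set differed by 0.04 (SE 0.14) with overlap. The iron, heme and NRF2 list that holds this gene had a median of -0.05. ACTB and GAPDH, taken as reference, differed by -0.19 (SE 0.20) and -0.07 (SE 0.10), and each was lower in 3 of 3 pairs. Genes of lineages other than myeloid cells had list medians between -0.04 and 0.22.

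Whether the doxycycline differences depended on PMA was asked with the vehicle pairs. In vehicle-treated cells 0 genes (0.0%) passed in limma in either fit, with 510 at an unadjusted p under 0.05 in the unpaired and 1090 in the paired fit. Of the 53 genes of the paired fit in PMA, 36 had the same sign in vehicle. The share of all genes with the same sign was not counted, so the 36 has no background to be read against. In vehicle 4 of the 53 had an unadjusted p under 0.05, beside the 510 and 1090 of all 19775 genes given above. Across the 19775 genes the differences in the 2 agents, which share no arrays, had a Pearson correlation of 0.22 and a Spearman correlation of 0.21, and genes are not independent replicates. In the test of the interaction itself 0 genes (0.0%) passed in the unpaired limma fit, with 518 at an unadjusted p under 0.05, and 1 gene (0.00506%), HES1, passed in the paired fit.

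HES1 in vehicle-treated cells was 4.76, 4.42 and 4.78 without and 4.29, 4.28 and 4.50 with doxycycline, a difference of -0.30 (SE 0.18). These values, on the probe set 203394_s_at, lie below all those of PMA-treated cells. They also lie below the median signal of every array (5.15 to 5.22). The interaction was 1.78 (SE 0.25), with an adjusted p of 0.133 unpaired, 0.0269 with replicate numbers as a block over all arrays and 0.00328 in the paired fit. Without PMA replicate 1 it was 1.98 (0.00672). The probe sets did not agree on the vehicle difference. On 203395_s_at, HES1 in vehicle was 4.53, 4.61 and 4.37 without and 5.05, 4.61 and 5.12 with doxycycline, a difference of 0.42 (SE 0.23) of the same sign as in PMA. The interaction there was 0.90 (SE 0.33), with an unadjusted p of 0.0162 and an adjusted p of 1 in limma over all probe sets, where that of 203394_s_at was 0.407. An opposite direction in vehicle therefore rests on 1 probe set, and on both the PMA difference was the higher. On both, all vehicle signals lay below the array medians, so the vehicle differences are between low signals. After HES1 the smallest p-values of the interaction belonged to MYCL (0.97, SE 0.17, adjusted p = 0.603), GRHL1, C11orf96 (1.33, SE 0.27, 0.821) and HES4 (0.97, SE 0.20, 0.821). GRHL1, a grainyhead transcription factor, was 5.40, 5.11 and 5.31 in vehicle and 4.53, 4.61 and 4.72 in vehicle with doxycycline, then 4.72, 5.50 and 5.24 in PMA and 5.57, 5.84 and 6.11 in PMA with doxycycline. On this probe set doxycycline thus went with a lower signal in vehicle (-0.65, SE 0.18) and a higher one in PMA (0.68, SE 0.18). The interaction was 1.34 (SE 0.26), with an adjusted p of 0.821 unpaired and 0.0647 paired. A dimmer GRHL1 probe set differed by only -0.08 in vehicle and 0.07 in PMA. C11orf96, at 6.86, 7.02 and 7.14 in vehicle, was lower in PMA alone and nearer to its vehicle level in PMA with doxycycline. ZXDC had an interaction of -0.01 (SE 0.22), since its signal differed by -0.49 in vehicle and -0.50 in PMA. For CCL2 the difference in vehicle was -0.11 (SE 0.64), and its interaction of -0.99 (SE 0.91) had an adjusted p of 1 unpaired and 0.631 paired.

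**Figure D5:**
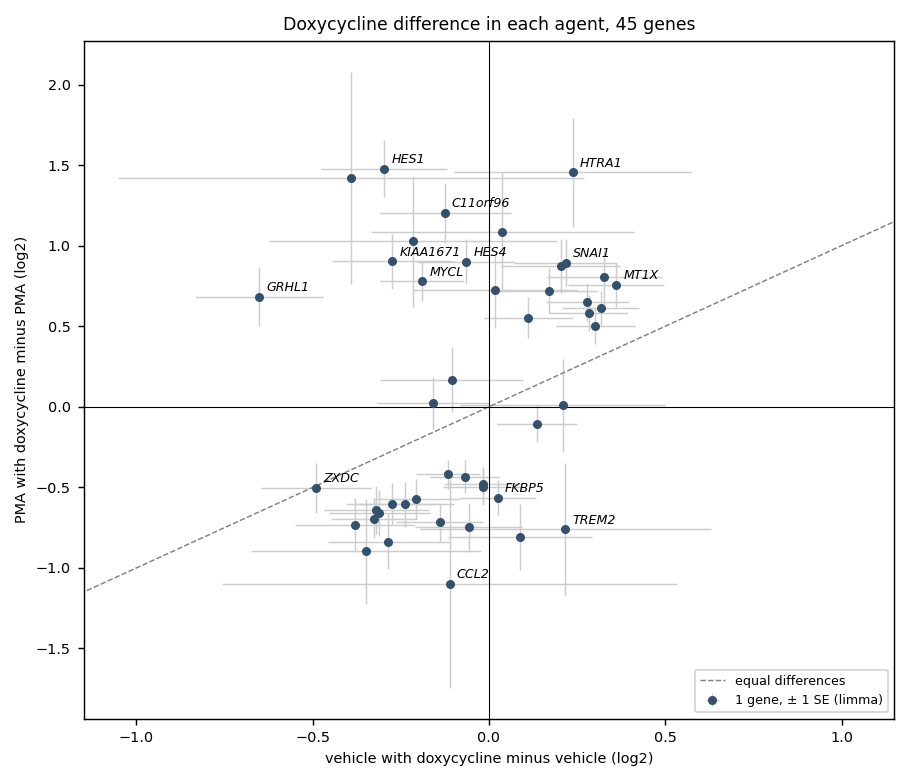
Difference with doxycycline in PMA-treated cells (vertical, log2) against that in vehicle-treated cells (horizontal, log2) for 45 genes named by rank or by name, with bars of 1 SE from limma and a dashed line of equal differences. GPRC5B and HES1 lie highest above the line, GRHL1, C11orf96, EFNB2 and HTRA1 also lie far above it, and ZXDC lies on it. The PMA differences of the other genes are mostly larger in size than their vehicle differences. Most of the plotted genes were picked by their PMA p-values.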

How the data were processed

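RNA of 12 cultures was measured on 12 arrays, 3 per group. The deposited log2 signals come from RMA, a tool named in the submitters' processing notes. Its version was not given in the sources used here, and no further scaling was applied. Of 54675 probe sets 62 were controls and 41091 paired with 1 gene symbol; those with several (1801) or none (11721) were left out. Group means were fitted over all 12 arrays in limma 3.58.1 under R 4.3.3 (8 residual degrees of freedom, 5.6 from the prior), two-sided, Benjamini-Hochberg adjusted over all 19775 genes; every adjusted p is from limma. Tables were made in Python 3.11.15. The procedure was tested on simulated data.

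Deviations of same-numbered arrays correlated at 0.64, 0.29 and 0.32 in PMA and 0.57, 0.25 and 0.31 in vehicle, all over 0.1, so arrays were taken as paired within agents. Arrays of different numbers 2 and 3 also correlated over 0.1, at 0.39 and 0.30 in PMA and 0.24 and 0.12 in vehicle. The correlations therefore set the arrays numbered 1 apart but cannot show that numbers 2 and 3 mark pairs. The pairing is an assumption of the paired fit. The labels call the replicates biological without saying what a number shares. Only 3 arrays per group limit the precision.

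Named genes were ZXDC, ZXDA, ZXDB, CCL2, CIITA, BCL6, 2 reference genes, the 15 genes of smallest p in each direction without overlap, the 5 of smallest p in the interaction, the 10 of smallest p passed only in the paired fit, and the member of smallest p or the passed members of each list. Other genes, among them further metallothionein, Notch, chemokine and granule genes and those of the paired fit, were named after their values were seen. The members and the 42 lists (792 genes, 731 measured) were chosen with earlier results of these data known. Alternatives were other blocks, array sets, probe set choices, scalings, filters and variance models; the paired fit on fewer arrays was added after seeing the data. Promoter sequences are from RefSeq, GRCh38.p14; those of CCL2, SNAI1 and 3 metallothionein genes are not used here.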

Additional observations from a re-analysis of the deposited data

Results flagged for a closer look

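HES1 was singled out because its doxycycline difference differed between agents by a test of the difference itself. The interaction was 1.78 (log2) with an adjusted p of 0.00328 in limma with a block for each of 6 pairs, and 0.133 without a block. On this probe set the 3 PMA pairs were higher and the 3 vehicle pairs lower with doxycycline. The vehicle signals of HES1 lay below the array medians. A second HES1 probe set was higher in both agents, by 1.33 in PMA and 0.42 in vehicle, with an interaction of 0.90 (SE 0.33) and an adjusted p of 1 over all probe sets in limma; the third, dim, differed by 0.11 and 0.096.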

How the results depend on the processing

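The count of 1 gene became 0 on the 6 PMA arrays alone, with probe sets averaged per gene, over all probe sets or without shared probe sets, and 4 at an adjusted p under 0.1. With a replicate block over all arrays it was 2, with the block on PMA arrays alone 3, and with 6 pairs 53. In the 6-pair fit on replicates 2 and 3 alone it was 7, without PMA pairs 1, 2 and 3 it was 8, 13 and 4, and without all arrays numbered 1 and with no block it was 9. Leaving out 1 PMA array gave 0 to 1. It stayed 1 without dim genes, after cyclic loess or median centring, and with a trended robust variance. The interaction count of 0 became 1 with the replicate block, with 6 pairs and without PMA replicate 1, and 1, 4 and 2 in the 6-pair fit without pairs 1, 2 and 3. The blocked fits have fewer residual degrees of freedom, 4 for 6 pairs.

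The ZXDC difference kept its sign and stayed short of the threshold in all settings run. Signs turned for small differences: ZXDA (0.02) ranged from -0.11 to 0.14 with 1 array left out (-0.015 without PMA replicate 2) and was -0.0016 and -0.12 with 6 pairs without pair 2 or 3; ZXDB to -0.10 with 6 pairs without pair 2; BCL6 to -0.014 with probe sets averaged, -0.29 to 0.35 with 1 array left out (-0.13 and -0.19 without doxycycline replicates 2 and 3), and -0.12 with 6 pairs without pair 3; ACTB ranged from -0.37 to 0.048 and RPS3 from -0.13 to 0.037 with 1 array left out. Without shared probe sets, which reads another probe set, GPRC5B was -0.31, RASGRP3 0.15, CXCL2 0.021, FPR1 0.098 and FAS 0.035.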
